A study of Mus musculus with 8 samples.

Results

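Metallothioneins Mt1 and Mt2 were followed across the cell clusters of a single-cell RNA series on white preadipocytes. The 2 genes were chosen by name, among the 3903 gene symbols of a table of cluster markers, and they account for 23 of its 13337 entries. Mt1 had an entry in all 12 clusters and Mt2 in 11, all but cluster 11. The remaining metallothioneins of the list, Mt3 and Mt4, had 0 entries.

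The cells came from the inguinal white fat of young adult C57BL/6 mice, either wild type (WT) or lacking both Hmgn1 and Hmgn2 (double knockout, DKO), genes of nucleosome-binding proteins. They were grown on collagen and collected as preadipocytes at day 0, or at day 6 of a course driving them towards brown-like adipocytes. That course began with insulin, dexamethasone, IBMX, triiodothyronine and rosiglitazone. Before day 6, per the study's methods, the medium was changed to insulin and triiodothyronine only, without dexamethasone, IBMX or rosiglitazone. Each genotype and day had 2 samples, 8 in all. The table pools the cells of the 8 samples, so WT and DKO, or day 0 and day 6, could not be compared, the loss of Hmgn1 and Hmgn2 could not be checked per sample, and no value below has a replicate, an SD or a test. The number of cells and reads behind each value is unknown.

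Metallothioneins are small, cysteine-rich proteins that bind zinc and copper in the cytoplasm and release them to other proteins. Their genes are switched on by the zinc sensor MTF-1 through short DNA elements called metal response elements, and also by glucocorticoids, such as the dexamethasone of the induction medium, by oxidants and by inflammatory signals. Fat cells are known to make both proteins and to raise them under metal load and stress.

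In the mouse genome (GRCm38, which is mm10) both genes lie on chromosome 8, plus strand, as protein-coding genes with 3 exons in the first annotated transcript. Mt2 (ENSMUSG00000031762) spans 94172664 to 94173568 and Mt1 (ENSMUSG00000031765) spans 94179082 to 94180327, with 5513 bases between them. Because the pair varied together across clusters, as given below, the 250 bases before the RefSeq start of each gene were searched for the metal response core, written TGCACNC or TGCGCNC, and for TGACNNNGC, the core of an element used in the response to oxidants, on both strands. In these bases Mt1 held 1 metal response core and Mt2 held 3. Only 1 RefSeq start per gene was used, 94179089 for Mt1 and 94172618 for Mt2. Both differ from the starts of the spans above, and distances are counted from the RefSeq starts. Cores outside these 250 bases, whether further upstream or after the start, were not counted. The counts thus do not compare the whole promoters of the 2 genes. At least 1 such core was found in 21.4% of 32851 mouse promoters of the same length, and at least 3 in 1.26%. Within the bases searched, the oxidant core was found in Mt2 and in 10.2% of all promoters. The Mt2 core 50 bases before the start reads on the opposite strand, and none of the matches overlap. A match is only a match of letters. They are shown with 10 bases on each side (RefSeq, GRCm38.p6, plus strand, the motif in capitals).

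Mt1, 23 bases before the start, chr8:94179056-94179082: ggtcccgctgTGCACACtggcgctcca

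Mt2, 223 bases before the start, chr8:94172385-94172411: gcatcgcctcTGCACCCggcccctcgg

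Mt2, 128 bases before the start, chr8:94172480-94172506: gcagacccttTGCGCTCagctcctttg

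Mt2, 79 bases before the start, chr8:94172529-94172557, oxidant core: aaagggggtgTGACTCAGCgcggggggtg

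Mt2, 50 bases before the start, chr8:94172558-94172584: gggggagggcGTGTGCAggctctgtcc

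The values used are detection percents, the share of cells in which at least 1 transcript of the gene was counted, inside a cluster and in all other cells. Detection counts a cell once, however many transcripts it holds. For genes seen in nearly every cell it can stay the same while the amount of RNA changes, and wider detection in a cluster does not mean a higher mean level, nor does its direction give that of the mean. The entries had been selected on the size of the authors' difference between a cluster and all other cells, so the differences below are a description.

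Mt1 was seen in nearly every cell. Its detection over all cells, solved from the deposited fractions, was 97.7%, and that of Mt2 was 91.6%. Computed from each cluster in turn, these values ranged from 97.7% to 97.8% and from 91.6% to 91.7%.

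In clusters 2, 6, 8 and 11, Mt1 reached 100%, to the 3 decimals deposited. Clusters 3 and 4 had 99.7%, cluster 1 had 99.5%, and clusters 5 and 9 had 98.8%. The low end held cluster 0 with 97.8%, cluster 7 with 96.9% and cluster 10 with 54.8%. Cluster 10 thus stood alone, and the other 11 clusters lay within 3.1 percentage points of each other.

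Mt2 spread the clusters further apart. Clusters 2 and 8 had 100% and cluster 6 had 99.9%. Clusters 1 and 4 had 97.4% and cluster 3 had 95.6%. Below them came cluster 9 with 88.4%, cluster 0 with 87.7%, cluster 5 with 83.9% and cluster 7 with 81.3%, and cluster 10 was last with 31.7%. Without cluster 10, Mt2 still ranged over 18.7 percentage points. No error is available for neighbours in either order, such as clusters 9 and 0, so none of them can be said to differ.

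**Figure D1:**
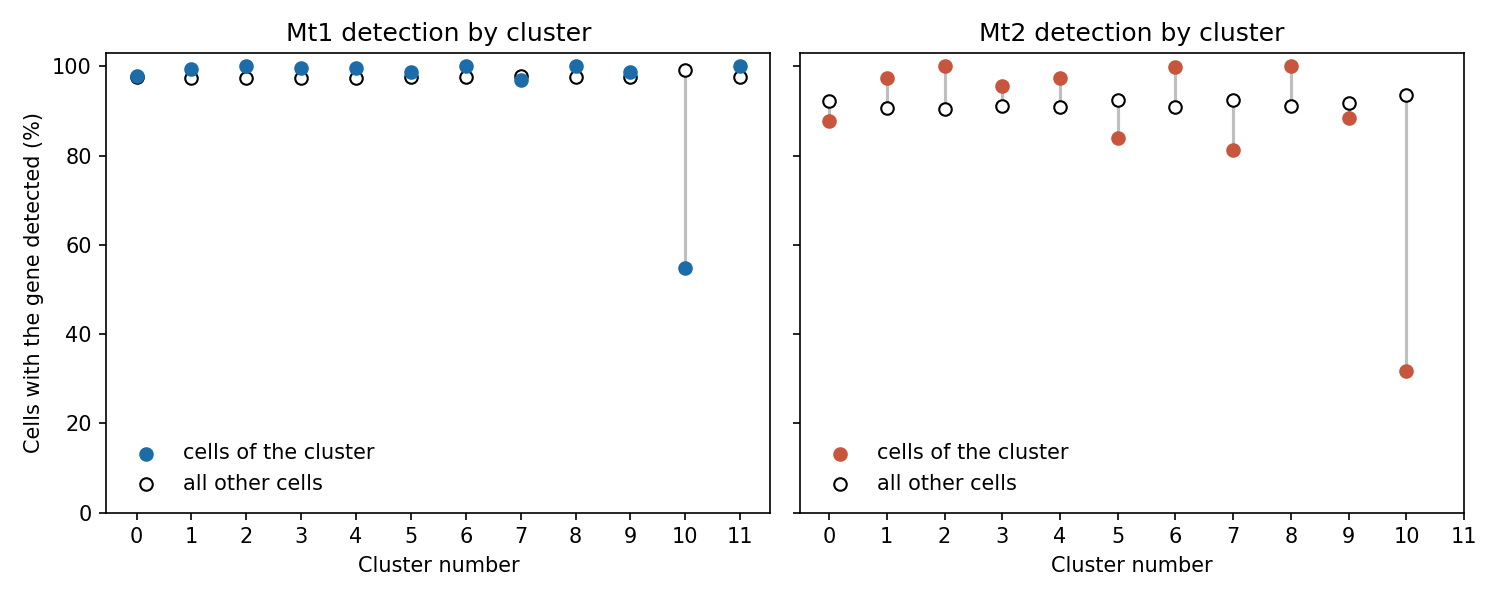
Percent of cells with Mt1 (left) or Mt2 (right) detected in each numbered cluster (filled points) and in all other cells (open points), pooled over 8 samples, with grey lines joining the 2 values of a cluster. Mt1 stayed at or above 96.9% except in cluster 10 (54.8%), while Mt2 was between 81.3% and 88.4% in clusters 0, 5, 7 and 9 and at 31.7% in cluster 10.

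Against all other cells, Mt2 was detected more widely in 6 clusters and less widely in 5. Cluster 2 was above by 9.5 percentage points, clusters 6 and 8 by 8.9, cluster 1 by 6.7, cluster 4 by 6.4 and cluster 3 by 4.4. On the other side, cluster 10 differed by -61.9 points, cluster 7 by -11.1, cluster 5 by -8.5, cluster 0 by -4.6 and cluster 9 by -3.4. Taking 5 points as the size to count, Mt2 was higher in 5 clusters and lower in 3. Over all 13302 entries with an intact symbol, 46.7% were higher by that size and 41.8% lower, so neither direction was rare. Mt1 had no cluster higher by 5 points and 1 lower, cluster 10, at -44.4 points.

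Most cells without an Mt1 transcript were those of cluster 10. This cluster held 3.22% of all cells, a share solved from the fractions, and 45.2% of its cells had no Mt1 transcript counted. They made up 64.2% of all cells without Mt1. For Mt2 the weight was spread more evenly. Cluster 10 held 26.3% of the cells without Mt2, cluster 0 held 21.1%, cluster 5 held 17.0%, cluster 7 held 14.8% and cluster 9 held 8.05%. Clusters 2, 6 and 8 added at most 0.0892% each.

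**Figure D2:**
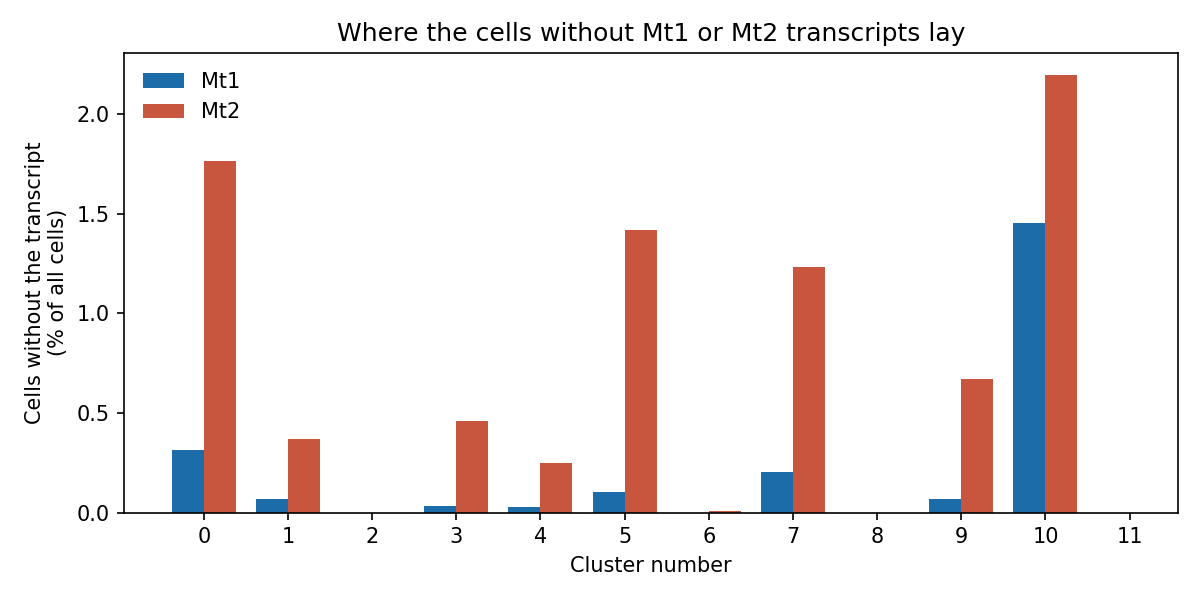
Cells without a detected Mt1 (blue) or Mt2 (red) transcript in each cluster, as a percent of all cells (bars from 0, no replicates). Cluster 10 has the tallest bars for both genes, and for Mt2 clusters 0, 5, 7 and 9 follow.

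Cluster 10 also weighed on every comparison of Mt1 with all other cells. Set against the other cells without those of cluster 10, the Mt1 difference of cluster 0 went from 0.1 to -1.60 percentage points, that of cluster 5 from 1.2 to -0.40 and that of cluster 9 from 1.1 to -0.38. In clusters 1, 2, 3, 4, 6, 8 and 11 Mt1 stayed above by 0.40 to 0.96 points, and in cluster 7 it was at -2.43. For Mt2 no cluster changed direction. Clusters 0, 5, 7 and 9 differed from the other cells by -5.57 to -13.2 points, and clusters 1, 2, 3, 4, 6 and 8 lay 2.20 to 7.28 points higher. With cluster 10 left out, both genes thus had their narrower detection in clusters 0, 5, 7 and 9.

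These 4 clusters were ones in which genes were mostly detected in more cells. Of their 3220 entries, 78.3% were higher by at least 5 points and 10.7% lower, with a median difference of 19.7 points. All 4 Mt2 entries there were below the other cells, 2 of them by at least 5 points. Mt2 thus lay on the side of the few entries in these clusters, which were chosen after its values had been seen.

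Clusters 4 and 10 were the reverse, with most genes detected in fewer cells. In cluster 4 the median difference over its 2068 entries was -47.2 percentage points, and 44 entries (2.13%) had detection at least as wide inside as outside. Mt1 and Mt2 were both among these 44. There, Mt1 had 99.7% against 97.5% outside, and Mt2 had 97.4% against 91.0%. Of the 298 genes listed for cluster 4 that reached 90% detection in all other cells, 5 were not lower inside, namely Mt1, Mt2, the long non-coding RNA Gm42418 and the mitochondrial transcripts mt-Nd2 and mt-Atp6. The median of the 298 was 49.9% inside against 96.0% outside. Adipocyte markers shared this behaviour in part. Of the 8 with an entry in cluster 4, 5 were higher by at least 5 points and 1, the transcription factor Cebpa, was lower, at 21.1% against 27.9%. Pparg, the receptor that drives fat cell formation, had 11.7% against 16.3%, and the lipase Lpl had 88.7% against 92.5%. The higher ones included Fabp4, the fatty acid carrier, with 98.5% against 71.0%, and Adipoq, the hormone adiponectin, with 40.5% against 16.4%.

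In cluster 10 the metallothioneins moved with the other genes. Its 713 entries had a median difference of -48.3 points. Of the 63 genes listed there that reached 90% in all other cells, Mt1 with 54.8% lay above 37 and Mt2 with 31.7% above 13, around a median of 48.0%. The ferritin chain Fth1, which stores iron, had 85.1% in this cluster and the light chain Ftl1 had 85.3%. How far the low detection of Mt1 and Mt2 in cluster 10 follows the depth of its cells was not tested.

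**Figure D3:**
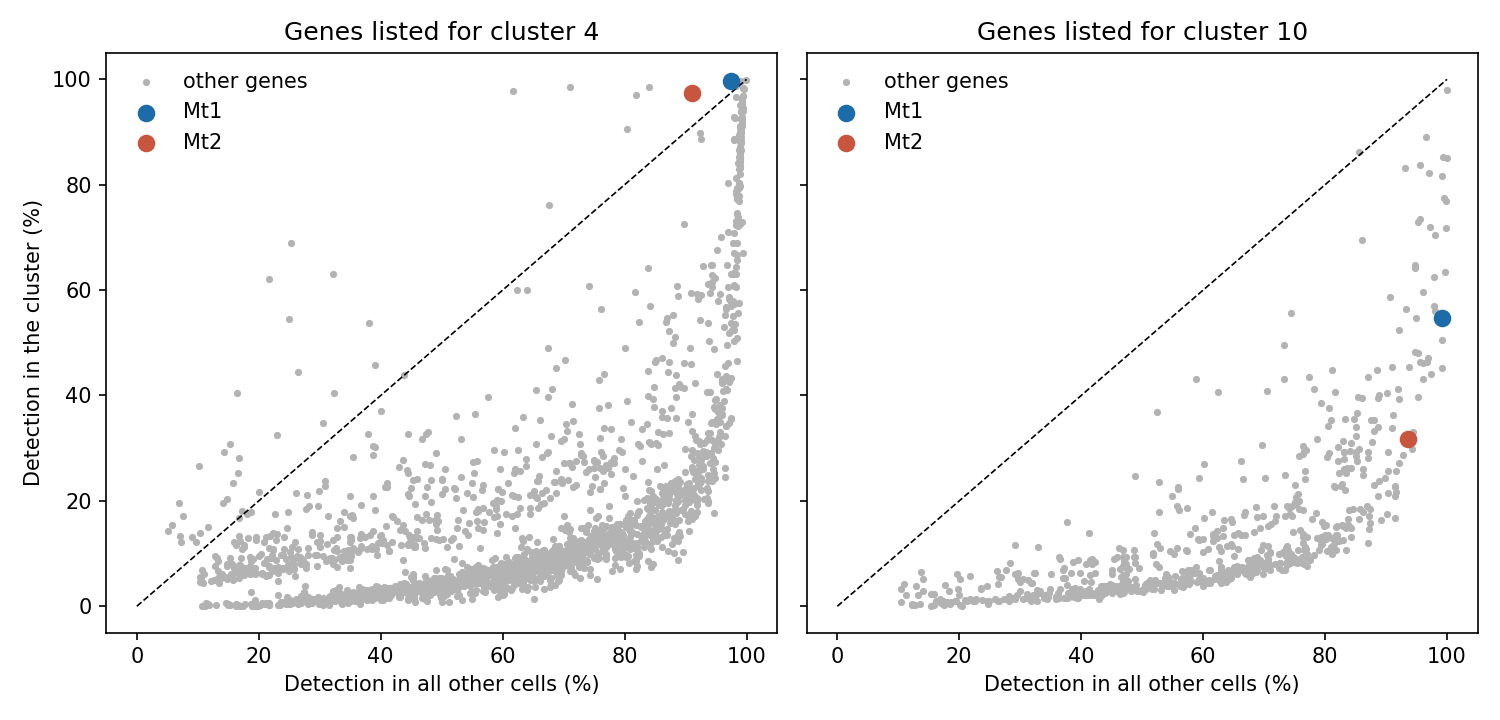
Detection of every gene listed for cluster 4 (left) and cluster 10 (right), as the percent of the cluster's cells (vertical) against the percent of all other cells (horizontal), with equality as a dashed line. Mt1 and Mt2 sit above the line in cluster 4, where the median difference over genes is -47.2 percentage points, and below it in cluster 10.

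Mt1 and Mt2 put the clusters in nearly the same order. Across the 11 clusters that list both, the log odds of their detection had a Pearson correlation of 0.94, and the ranks one of 0.96. Without clusters 4 and 10 these were 0.97 and 0.94 over 9 clusters. The clusters share libraries and their depth is unknown, so this is a description. Mt2 was never detected more widely than Mt1. Mt1 led by 23.1 percentage points in cluster 10. Its lead was 15.6 points for cluster 7, 14.9 for cluster 5, 10.4 for cluster 9 and 10.1 for cluster 0. In clusters 1, 3 and 4 it led by 2.1 to 4.1 points, and in clusters 2, 6 and 8 the genes were within 0.1 points. Cells without Mt2 were 5.59 times as many as cells without Mt1 in cluster 0 and 6.03 times in cluster 7, but 1.51 times in cluster 10.

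Among genes sharing at least 8 clusters with a member, the pattern most like Mt1 by the correlation of log odds was that of Nfia, a transcription factor of brown fat, with 0.97 over 9 clusters. Appbp2 followed with 0.97 over 8 clusters, and Mt2 ranked 3 of the 428 genes compared, with 0.94. The median over these genes was -0.06. Mt1 was at 100% in clusters 2, 6, 8 and 11, so its log odds there were all held at the same upper limit, and cluster 10 lay far below. Without clusters 4 and 10, Nfia had 0.93 over 8 clusters. For Nfia, cluster 8 had 93.3%, cluster 6 had 92.4% and cluster 2 had 83.8%, against 53.0% for cluster 0 and 4.8% for cluster 10. For Mt2 the nearest of 281 genes were Lars2, a mitochondrial leucyl-tRNA synthetase, with 0.99 over 9 clusters, Fcor, a corepressor of Foxo1 in fat cells, with 0.98 over 9 and Folh1, a carboxypeptidase, with 0.97 over 9. Lars2 had 92.2% to 93.6% in clusters 2, 6 and 8, 76.1% in cluster 4 and 55.1% to 56.4% in clusters 0, 5 and 9. Folh1 had 51.7% to 59.5% in clusters 2, 6 and 8 and at most 3.6% in clusters 0, 1, 3, 5 and 7. For Mt2, Mt1 ranked 12. Once clusters 4 and 10 were left out it ranked 1, but of the 100 genes that still shared 8 clusters with Mt2, which no longer included Lars2 and Fcor. By mean absolute difference of detection none of these named genes stayed among the nearest 3 of its member.

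The genes that share a regulator or a metal with the metallothioneins were then placed in the same clusters. Clusters 2, 6 and 8, where Mt2 reached 99.9% or more, were grouped after its values had been seen. Of their 3666 entries, 44.5% were higher by at least 5 points and 36.6% lower, with a median difference of 2.7 points. The 15 glucocorticoid-induced genes of the list had 17 entries there, from 10 genes, and all 17 were higher, with a median of 28.5 points. Fkbp5, a chaperone of the glucocorticoid receptor, had 82.0% in cluster 6 against 29.0% outside it, 78.4% in cluster 8 and 61.7% in cluster 2. Zbtb16, a transcription factor, had 60.2% in cluster 8 and 54.9% in cluster 6, the latter against 11.7% outside, and at most 1.1% in clusters 0, 1, 3, 5, 7 and 10. Klf9, another transcription factor, had 95.4% in cluster 8 and 90.4% in cluster 2. Errfi1, an inhibitor of the EGF receptor, had 92.3% in cluster 2 and 90.2% in cluster 6. Both were also higher in cluster 7, Klf9 with 85.9% against 74.1% outside and Errfi1 with 73.8% against 63.1%.

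The list was mixed elsewhere. In clusters 0, 5, 7 and 9 the list had 19 entries, 6 higher and 9 lower by at least 5 points. Of all entries there, 78.3% were higher and 10.7% lower. The higher entries were Klf9 in cluster 7, Errfi1 in clusters 7 and 9, Cebpb in clusters 5 and 9, and Cebpd in cluster 5. Over all clusters the list had 70 entries, 31 higher and 34 lower, beside 46.7% and 41.8% of all entries. In cluster 4, 7 of its 8 entries were lower by at least 5 points, as were 1994 of all 2068 entries of that cluster, among them Fkbp5 at 13.2% against 35.0%. In cluster 11 the list was split. Zbtb16, Glul, which makes glutamine, Angptl4 and Pdk4 were higher there, at 59.7%, 95.1%, 94.1% and 49.8% against 14.2%, 33.8%, 32.6% and 7.1% outside. Cebpd, Dusp1, Sgk1 and Errfi1 were lower, at 44.1%, 34.5%, 35.4% and 55.8% against 68%, 52.4%, 47.1% and 63.9%. In cluster 1, Cebpb, Cebpd, Dusp1 and Klf9 were higher by at least 5 points, and Angptl4, Errfi1, Fkbp5, Glul and Zbtb16 were lower.

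**Figure D4:**
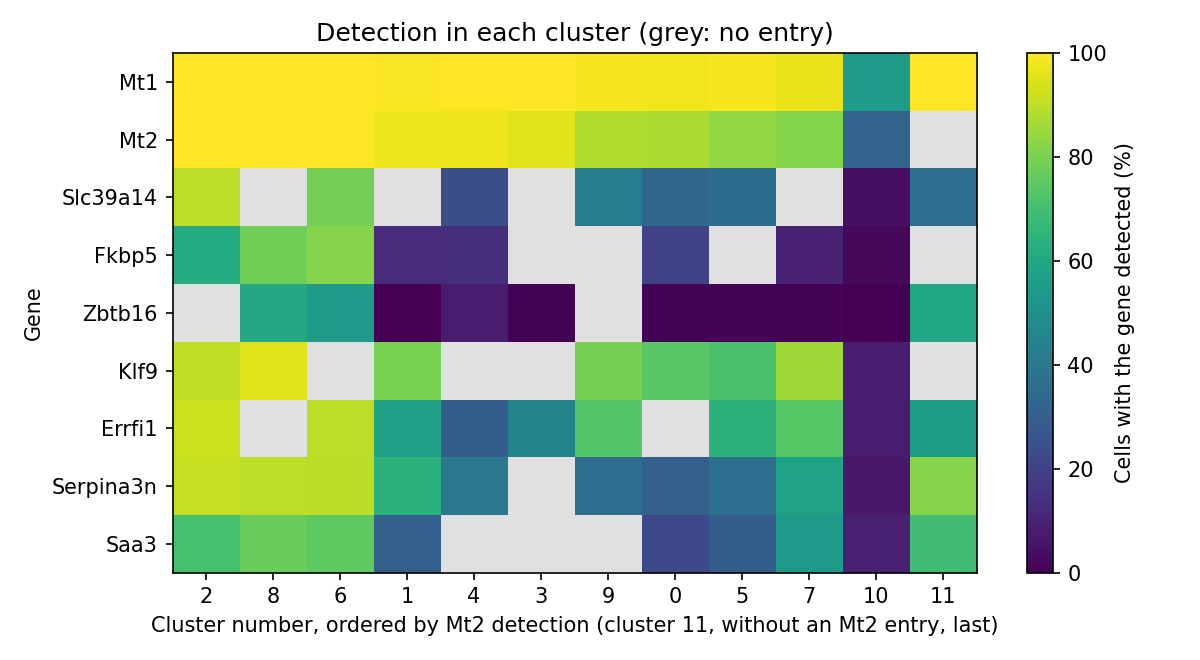
Percent of cells with each gene detected (colour) in the 12 clusters, ordered by Mt2 detection with cluster 11 last. Grey marks no entry. The genes beside Mt1 and Mt2 were picked from the lists. Other members, such as Il6 and Ccl2, which were lower in cluster 8 than outside it, are not drawn. The glucocorticoid-induced genes Fkbp5 and Zbtb16, the zinc importer Slc39a14 and the acute-phase genes Serpina3n and Saa3 had detection of 54.9% to 91.3% wherever they are listed in clusters 2, 6 and 8 on the left.

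Few genes of zinc transport had an entry. Of 17 zinc genes, 5 were listed, with 14 entries, 2 of them higher and 10 lower, beside 46.7% and 41.8% of all entries. Of the 10 lower entries, 5 were in clusters 4 and 10, where nearly every entry was lower. The sensor Mtf1 and the exporter Slc30a1 had no entry. Both higher entries were of Slc39a14, an importer of zinc and iron that also answers to inflammation. Its detection was 90.1% in cluster 2 against 41.7% outside, and 79.0% in cluster 6 against 45.0%. Clusters 0, 5 and 9 had 33.1%, 35.2% and 42.0%, and cluster 4 had 24.0%, each below the cells outside by at least 5 points. Slc39a7, which releases zinc from the endoplasmic reticulum, had 9.5% in cluster 4 against 72.7% outside, and 70.7% in cluster 11 against 66.6%.

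The copper genes had few entries in these clusters. In clusters 2, 6 and 8 there were 5, from 3 genes, 1 higher and 3 lower, beside 44.5% and 36.6% of all entries there. In clusters 0, 5, 7 and 9 all 3 were higher, as were 78.3% of all entries there. Cp, the copper carrier ceruloplasmin, was listed for cluster 7 alone, at 47.7% against 13.3%, where Mt2 detection was narrower than in any listed cluster but cluster 10. Atox1, a copper chaperone, and Sod1, the copper and zinc superoxide dismutase, had 98.9% and 97.5% in cluster 11, against 83.1% and 64.1% outside. Cox17 of the list was also higher there, while Lox, Loxl1 and Sod3 were lower by at least 5 points. Sod3, the secreted superoxide dismutase, had 12.1% in cluster 11 against 33.4%, and 64.4% in cluster 1 against 27.9%.

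Genes of the response to oxidants were also divided. Of their 11 entries in clusters 2, 6 and 8, 2 were higher, 1 was lower and 8 lay within 5 points. Among all entries there, 44.5% were higher and 36.6% lower. One higher entry was Gclc, a subunit of the enzyme that starts glutathione synthesis, at 54.2% of cluster 6 against 22.8%. Its partner Gclm was lower in cluster 8, at 35.9% against 62.8%, and higher in clusters 9 and 1, at 91.6% and 80.4%. Hmox1, which breaks down heme, had its widest listed detection in cluster 3, at 77.9% against 56.2%. In clusters 0, 5, 7 and 9 the list had 9 entries, 5 higher and none lower, beside the 78.3% higher over all genes.

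Acute-phase genes had 14 entries in clusters 2, 6 and 8, 8 higher and 2 lower, beside 44.5% and 36.6% of all entries there. Apart from Stat3 in cluster 2 and Timp1 in cluster 6, the higher entries were all of Serpina3n and Saa3. Serpina3n, a secreted protease inhibitor, had 91.3%, 89.7% and 90.2% in clusters 2, 6 and 8, and 30.7%, 36.7% and 35.7% in clusters 0, 5 and 9. In cluster 7 it had 57.8% against 55.7% outside. Saa3, a serum amyloid, had 70.8%, 75.0% and 77.2% in the first 3 and 22.0% and 29.3% in clusters 0 and 5. Cluster 7 again stood apart from those, with 53.7% for Saa3 against 44.1% outside. The cytokines went otherwise. Il6 was at 4.9% in cluster 8 against 47.5% in cluster 1, and Ccl2 at 18.4% in cluster 8 against 63.2% in cluster 5.

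Between clusters 2, 6 and 8 and clusters 0, 5, 7 and 9 the adipocyte markers were divided, except in cluster 7. They had 12 entries in clusters 2, 6 and 8, all higher by at least 5 points, beside 44.5% of all entries there. In clusters 0, 5, 7 and 9 they had 15, 10 lower and 2 higher, beside 10.7% and 78.3% of all entries. Both higher entries were in cluster 7, Fabp4 with 92.6% against 72.3% and Lpl with 98.5% against 91.7%. Fabp4 had 99.6% to 100% in clusters 2, 6 and 8. Clusters 1 and 3 lie outside both groups and had Mt2 at 97.4% and 95.6%. There, every listed adipocyte marker but Lpl was lower by at least 5 points. Fabp4 had 53.3% in cluster 1 against 77.0% outside, and 52.6% in cluster 3 against 76.1%. Lpl had 93.1% against 92.0% in cluster 1 and 98.5% against 91.4% in cluster 3. The preadipocyte markers had 12 entries in clusters 2, 6 and 8, 3 higher and 7 lower, beside 44.5% and 36.6% of all entries. In clusters 0, 5, 7 and 9 they had 9, 7 of them higher, close to the 78.3% of all entries there. The proliferation markers did not follow the groups. All 4 were higher in clusters 5, 6 and 9 and lower in clusters 0, 2, 7 and 8, as with Mki67, a protein of dividing cells, at 92.0% in cluster 6 and 5.1% in cluster 2. The immune, endothelial and glial lists had 0 entries. The part of cell state, day, genotype or depth in the detection of Mt1 and Mt2 was not tested.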

How the data were processed

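White preadipocytes of 2 genotypes at day 0 and day 6 were profiled by droplet single-cell RNA-seq, in 8 samples forming 4 groups, assigned from the sample titles. Per the submitters' notes and the study's methods, reads were mapped to mm10 with Cell Ranger 6.0.0, captures were aggregated with depth equalized, and cells were filtered, log-normalized and clustered in Seurat. Removal of doublets is not described, and none were looked for here. For each gene and cluster, the authors deposited a fraction of detecting cells within that cluster and a second one outside it, to 3 decimals, printed here as percents. They also deposited log2 fold changes and p-values of their own comparison of each cluster with the rest, which compare means and were not used. A gene below the authors' minimums has no entry, which is not a 0.

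Cluster shares were solved by least squares from the 10 genes listed in every cluster, Mt1 among them, since detection over all cells must be equal from every cluster; the solver was tested on simulated data. Fractions were held between 0.0005 and 0.9995 for log odds. A difference of 5 percentage points was counted. Genes most alike (3 per member) were ranked by the Pearson correlation of log odds over at least 8 shared clusters. The members, lists and alternatives were chosen with earlier results of these data known. A total of 35 entries whose symbol had turned into a date were left out. The number of unused per-sample columns was 0. Python 3.11.15 was used with numpy 2.4.6 and pandas 2.3.3 for the values, scipy 1.17.1 for correlations and matplotlib 3.10.9 for plots.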

Additional observations from a re-analysis of the deposited data

How the results depend on the processing

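No paired analysis was possible because samples were pooled before deposit and nothing here was tested, and for the same reason no replicate could be left out. Detection over all cells moved when clusters were removed, to 99.1% for Mt1 and 93.1% for Mt2 without clusters 4 and 10, and to 99.1% and 93.5% without cluster 10 alone, whose cells had the narrowest detection. Solving the shares from 2687 genes, or without Mt1, left them at 97.7% and 91.6%. Against the other cells without cluster 10, an alternative added after seeing the data like the shares without Mt1, the Mt1 difference reversed in cluster 0 (-1.60 points), cluster 5 (-0.40) and cluster 9 (-0.38), and no Mt2 difference reversed. On the log odds scale no difference of Mt1 or Mt2 reversed. The correlation of Mt1 with Mt2 lay between 0.90 and 0.97 on log odds, percents or ranks, with or without clusters 4 and 10. Counting differences of 2 or 10 points gave 89 or 60 higher and 99 or 82 lower list entries, against 81 and 90. Of the 3 genes most like Mt1, 1 was among the nearest 3 by ranks and 0 by mean absolute difference, and the same held for Mt2. Without clusters 4 and 10 the numbers were 2 for Mt1 and 1 for Mt2, but Appbp2 (for Mt1) and Lars2 and Fcor (for Mt2) then shared fewer than 8 clusters and could not be ranked. The numbers of cells and reads are unknown, so the effect of depth was not measured.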
